A study of Homo sapiens with 6 samples.

Results

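The 10 genes described here encode secreted inflammatory proteins that a carcinoma can release, namely the CXC chemokines CXCL1, CXCL2, CXCL3, CXCL5, CXCL6 and IL8 (now named CXCL8) and the cytokines IL6, IL1A, IL1B and LIF. Their probes were found by symbol, as all those that the array design assigns to these 10 of its 36337 gene names. The rule uses no measured value, but the list was drawn up with earlier results of these data known. Expression was measured on one-color human arrays in 6 tumors grown from BxPC-3, an epithelial cell line derived from a human pancreatic adenocarcinoma. The cells had been placed under the skin of female BALB/c nu/nu mice that were 8 to 10 weeks old at the start, and dosing began at a tumor volume of 150 mm3. The 3 control tumors came from mice that received the saline vehicle only, and the 3 DFX-treated tumors came from mice that received 200 mg/kg of deferasirox (DFX), an oral iron chelator, by gavage 3 times per week over 21 days. All tumors were of the same cell line. The nude host lacks T cells but keeps other leukocytes, fibroblasts and vessels, so that mouse RNA was part of each extract and could bind to the human probes.

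The share of probes that stood well above background was 50.3% on the array of DFX replicate 2 and up to 56.5% on the others. Log2 intensities of the tested probes correlated at 0.983 to 0.99 within the groups and at 0.98 to 0.988 between them. The control arrays lay in slide row 1 and the DFX arrays in slide row 2, so slide row and treatment cannot be told apart. The 6 epithelial markers on the list used here (KRT8, KRT18, KRT19, KRT7, EPCAM and CDH1) were all well above background on every array. In extracts of whole tumors, fewer cells of a type and less RNA per cell cannot be told apart. The p-values measure the spread between these tumors, and their small number sets the precision of every value.

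CXCL1, CXCL2, CXCL3, CXCL5, CXCL6 and IL8 are small proteins that carry the ELR sequence in front of the CXC motif and bind CXCR2, and IL8 and CXCL6 also bind CXCR1, the receptors that guide neutrophils. IL1A and IL1B signal through IL1R1 and its partner IL1RAP to NF-κB, which drives transcription of the ELR+ CXC ligands and of IL6. IL6 and LIF signal through the shared subunit gp130 (IL6ST), together with IL6R or LIFR, to STAT3. In pancreatic cancer these proteins are known as products of the tumor cells themselves and of the surrounding fibroblasts and leukocytes.

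The promoters of the CXC ligands resemble each other, and they are shown here because the genes lie side by side and are known targets of NF-κB. Each stretch below is in the RefSeq table of GRCh38.p14, runs 5′ to 3′ on the strand of its gene, and has in capitals the match to GGANTTNCC, a consensus of the NF-κB type that was searched on both strands.
CXCL1: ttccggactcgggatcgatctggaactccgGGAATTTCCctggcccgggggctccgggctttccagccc
CXCL2: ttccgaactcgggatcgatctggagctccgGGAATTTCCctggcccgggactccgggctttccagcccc
CXCL3: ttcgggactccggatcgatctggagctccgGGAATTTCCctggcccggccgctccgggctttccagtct
CXCL5: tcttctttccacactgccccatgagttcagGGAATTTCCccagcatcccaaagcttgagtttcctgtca
IL8: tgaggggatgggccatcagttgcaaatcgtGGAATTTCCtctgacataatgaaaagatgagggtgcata

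These stretches lie at chr4:73869285-73869353 (plus strand) for CXCL1, chr4:74099234-74099302 (minus strand) for CXCL2, chr4:74038729-74038797 (minus strand) for CXCL3, chr4:73998729-73998797 (minus strand) for CXCL5 and chr4:73740448-73740516 (plus strand) for IL8. The match began 77 to 91 bases before the transcription start in each of the 5 genes. CXCL6 and IL6 also held a match, at 89 and 72 bases before the start, so that 7 of the 9 genes with an entry in the table had one, against 4.27% of the 35116 promoters of the same length (250 bases before to 50 bases after the start). The promoters of CXCL1, CXCL2 and CXCL3 were 82.7% to 86.4% identical to one another over 226 to 242 aligned bases, and those of CXCL5 and CXCL6 were 85.9% identical over 249 aligned bases. TGANTCA, a site of the AP-1 type whose letters read the same on both strands, was found in IL8, 137 bases before the start, and in IL1A, against 7.71% of all promoters. ACGTG, the core of the hypoxia response element, was found on either strand in IL1A and in 21.4% of all promoters. No match overlapped another motif in the printed stretches, and LIF was not in the table.

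In the DFX-treated tumors, CXCL1, CXCL3, CXCL5 and LIF were higher than in the control tumors by 1.33-fold, 1.47-fold, 1.41-fold and 1.53-fold at an unadjusted limma p under 0.05, and for each of them the groups did not overlap on the brightest probe. CXCL2, IL8, IL1A and IL1B did not pass the test, and CXCL6 and IL6 were at or near background. None of the genes passed after Benjamini-Hochberg adjustment over the 31807 tested probes, since the adjusted limma p of the called probes lay between 0.514 and 0.591. Of the 10 genes 8 had a tested probe, and 4 of these 8 had a probe called higher and 0 had one called lower. Over all 23810 tested gene names, 4.35% were called higher and 6.3% lower on the same rule, 15.4% had a brightest probe without overlap between the groups, and for 6.93% it was higher after DFX. As a median, the log2 fold change over the 8 genes was 0.29, against -0.012 for all tested gene names.

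Some markers of epithelial cells moved with this result. On their brightest probes 5 of the 6 markers were higher and 1 was lower. KRT8, KRT18 and EPCAM were higher at an unadjusted limma p under 0.05, by 0.48, 0.27 and 0.43 on the log2 scale. KRT19 (0.02), CDH1 (0.06) and KRT7 (-0.17) did not pass, nor did the other KRT8 probes (-0.12 and 0.24) or the second KRT18 probe (0.15). KRT19 read 18.54, 18.44 and 18.44 in the controls against 18.44, 18.50 and 18.54 after DFX. Values recur because quantile normalization gives every array the same set of intensities. A change of KRT19 could thus show only as a change of rank, and it enters the mean of the 6 markers with this limit. The mean log2 intensity of the 6 epithelial markers was 15.56, 15.51 and 15.47 in control replicates 1, 2 and 3 and 15.71, 15.70 and 15.67 in DFX replicates 1, 2 and 3, a difference of 0.18 without overlap. With each array centred on that mean, an alternative chosen after the data had been seen, 0 of the 8 genes passed, the unadjusted limma p of CXCL1, CXCL3, CXCL5 and LIF being 0.114, 0.111, 0.0546 and 0.148. All 4 stayed higher, by 0.23, 0.37, 0.31 and 0.43 on the log2 scale. That centring lowered all values together, with the median of all tested probes at -0.21. Whether the epithelial share of the tumors had a part in the result was not tested.

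**Figure D1:**
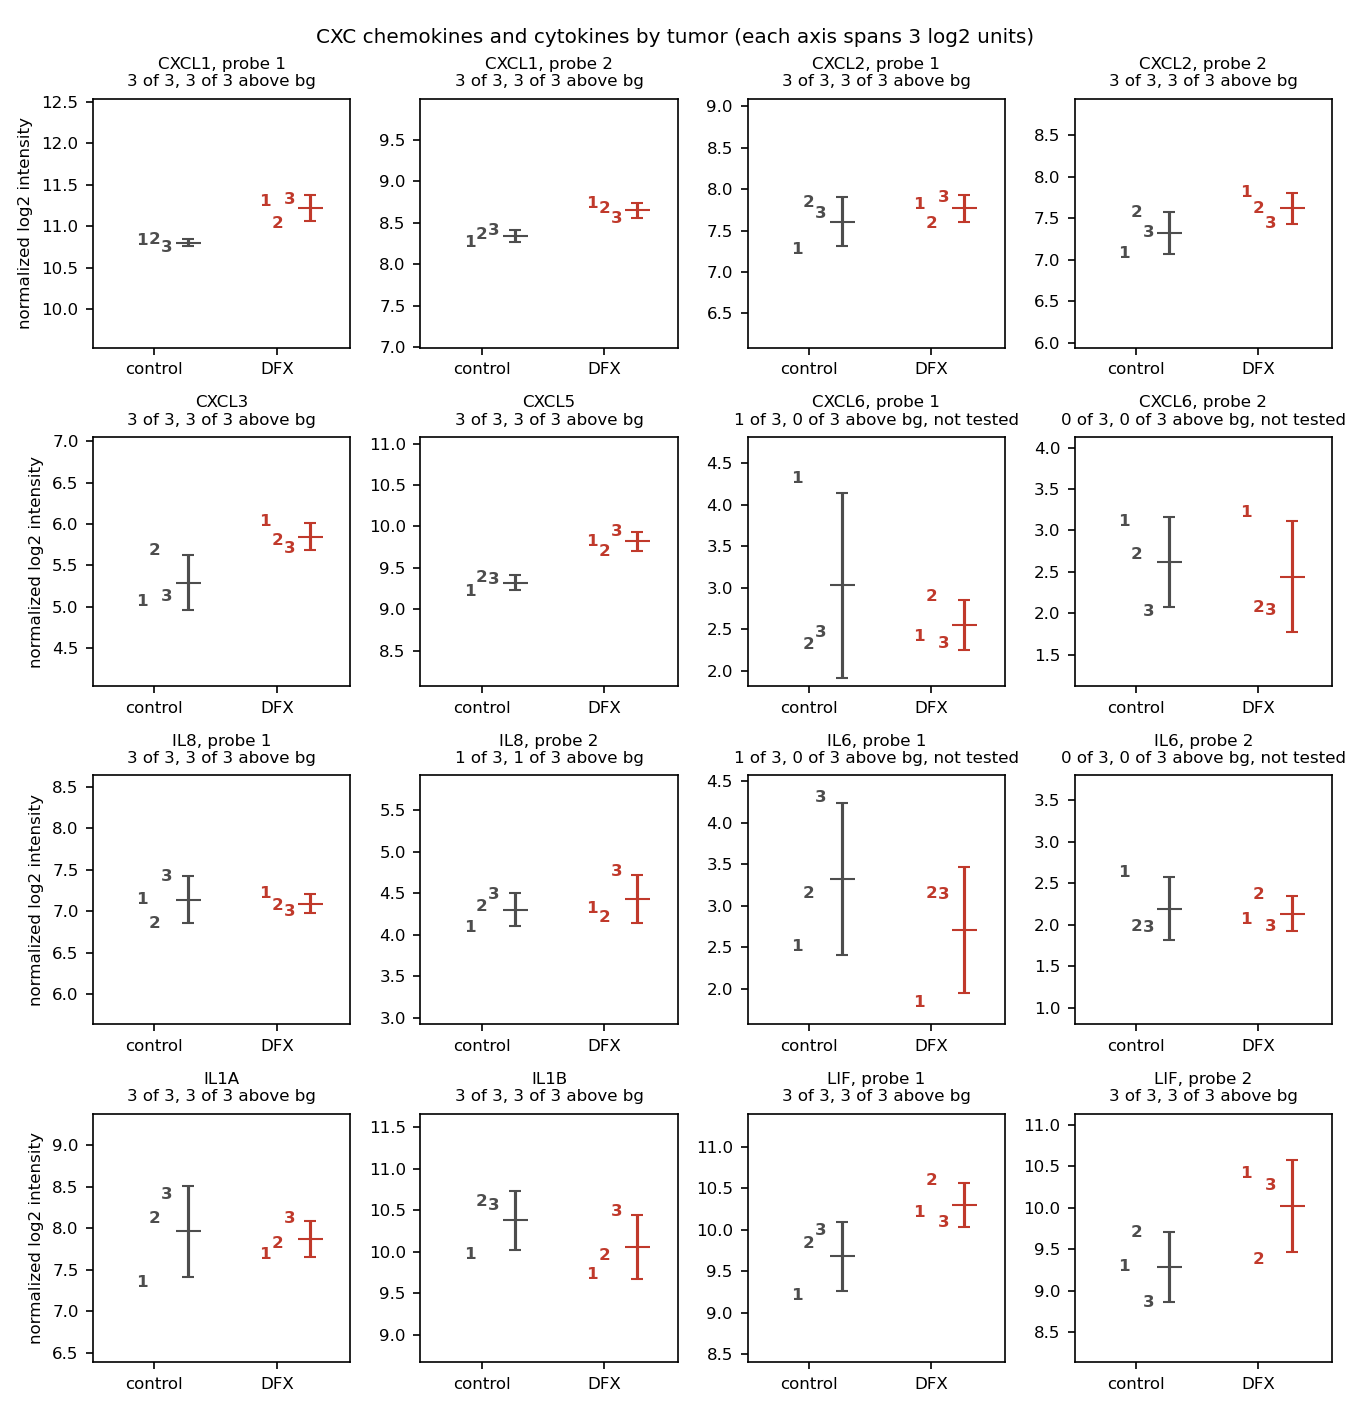
Normalized log2 intensity (vertical axis, 3 log2 units in each panel) of all 16 probes of the 10 genes, by group. Digits mark the replicates, and the bar beside them is the mean ± SD of 3 tumors. The panel titles give how many control and DFX arrays were well above background. The DFX-treated tumors lie above all control tumors for both CXCL1 probes, CXCL3, CXCL5 and LIF probe 1, and the other panels overlap.

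CXCL5, a neutrophil attractant that epithelial cells make on stimulation with IL-1, had the lowest unadjusted p among the genes on the list. Its probe (A_24_P277367, chr4:74861898-74861957 on hg19, minus strand) read 9.22, 9.39 and 9.36 in control replicates 1, 2 and 3 against 9.82, 9.70 and 9.94 in DFX replicates 1, 2 and 3, in normalized log2 intensity. Values of the other probes are given in the same order of replicates. All 3 DFX-treated tumors lay above all 3 control tumors, with means of 9.82 ± 0.12 (SD, n = 3) and 9.32 ± 0.093 (SD, n = 3). The log2 fold change was 0.50 (standard error, SE, 0.12; 95% interval 0.21 to 0.78), with an unadjusted limma p of 0.00504 and an adjusted limma p of 0.514. It kept an unadjusted p under 0.05 with each tumor left out in turn.

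CXCL1, first isolated as a growth factor of melanoma cells, was measured by 2 probes, which gave the same direction. The brighter one (A_23_P7144, chr4:74736850-74736909 on hg19, plus strand) read 10.82, 10.83 and 10.75 in the controls against 11.30, 11.03 and 11.32 after DFX. The other (A_33_P3330264, chr4:74735646-74735705) read 8.26, 8.36 and 8.40 against 8.73, 8.67 and 8.55. On both probes the lowest DFX-treated tumor lay above the highest control tumor. For the brighter probe the log2 fold change was 0.42 (SE 0.12, 95% interval 0.12 to 0.71; unadjusted limma p 0.0131, adjusted 0.518), and for the other it was 0.31 (SE 0.11; unadjusted limma p 0.0267, adjusted 0.558). Without DFX replicate 1 the brighter probe gave 0.38 with an unadjusted limma p of 0.0519. The other probe lost its call without control replicate 1, control replicate 2, DFX replicate 1 or DFX replicate 2, with log2 fold changes of 0.27, 0.32, 0.27 and 0.30, and its unadjusted limma p was 0.0777 with replicate number as a block.

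CXCL3 differs from CXCL1 and CXCL2 by few residues and acts on the same receptor. Its probe (A_24_P183150, chr4:74902702-74902761 on hg19, minus strand) read 5.07, 5.68 and 5.13 in the controls against 6.02, 5.81 and 5.71 after DFX. The groups were only just apart, with control replicate 2 at 5.68 and DFX replicate 3 at 5.71. The log2 fold change was 0.55 (SE 0.20, 95% interval 0.068 to 1.03; unadjusted limma p 0.0315, adjusted 0.570). With normexp background correction or the raw mean signal it was 0.24 or 0.23, still at an unadjusted p under 0.05. It did not pass when control replicate 1, control replicate 3, DFX replicate 1 or DFX replicate 2 was left out (log2 fold changes of 0.44, 0.47, 0.46 and 0.57).

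CXCL2, the nearest relative of CXCL1 and CXCL3 in sequence, did not pass on either probe. The brighter probe (A_23_P315364, chr4:74962985-74963044 on hg19, minus strand) read 7.27, 7.84 and 7.71 in the controls against 7.82, 7.59 and 7.90 after DFX. The second (A_24_P257416, chr4:74964342-74964401) read 7.07, 7.57 and 7.33 against 7.81, 7.62 and 7.43. Control replicate 1 was the lowest tumor on both, and the other tumors were mixed. The log2 fold changes were 0.16 (SE 0.18, 95% interval -0.29 to 0.61; unadjusted limma p 0.41) and 0.30 (SE 0.17, 95% interval -0.12 to 0.72; unadjusted limma p 0.135). Both intervals hold the fold changes of CXCL1 and CXCL5, so CXCL2 is not shown to differ from them by these tests.

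The second probes of CXCL1 and CXCL2 both lie in the coding sequence and are alike over part of their length. How much of either signal came from the other transcript was not tested. The 60-base probes, as the array design gives them, have in capitals the stretch of 37 aligned bases that they share, 32 of which are identical.
CXCL1: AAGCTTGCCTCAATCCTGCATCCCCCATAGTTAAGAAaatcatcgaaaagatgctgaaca
CXCL2: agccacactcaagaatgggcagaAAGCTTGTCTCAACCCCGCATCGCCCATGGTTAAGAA

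Among all other pairs of probes of different genes on the list, no local match held more than 13 identical bases. The brighter CXCL1 and CXCL2 probes, which gave 0.42 and 0.16, do not share such a stretch.

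IL8, the classic attractant of human neutrophils, did not pass the test. The probe that was well above background on all arrays (A_32_P87013, chr4:74609265-74609324 on hg19, plus strand) read 7.14, 6.85 and 7.42 in the controls against 7.21, 7.07 and 6.99 after DFX. The DFX-treated tumors all lay inside the range of the control tumors. The log2 fold change was -0.05 (SE 0.17, 95% interval -0.46 to 0.36; unadjusted limma p 0.783). A second IL8 probe (A_33_P3243230) was well above background on 1 array of each group and gave 0.13 (SE 0.19).

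CXCL6 was not measured above background in a way that allows a comparison. Its probe A_33_P3284266 was well above background only in control replicate 1, at 4.31, and read 2.32 to 2.90 on the other 5 arrays. The signal of A_23_P155755 never stood well above background. No fold is given for CXCL6, and neither probe passed the detection filter.

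**Figure D2:**
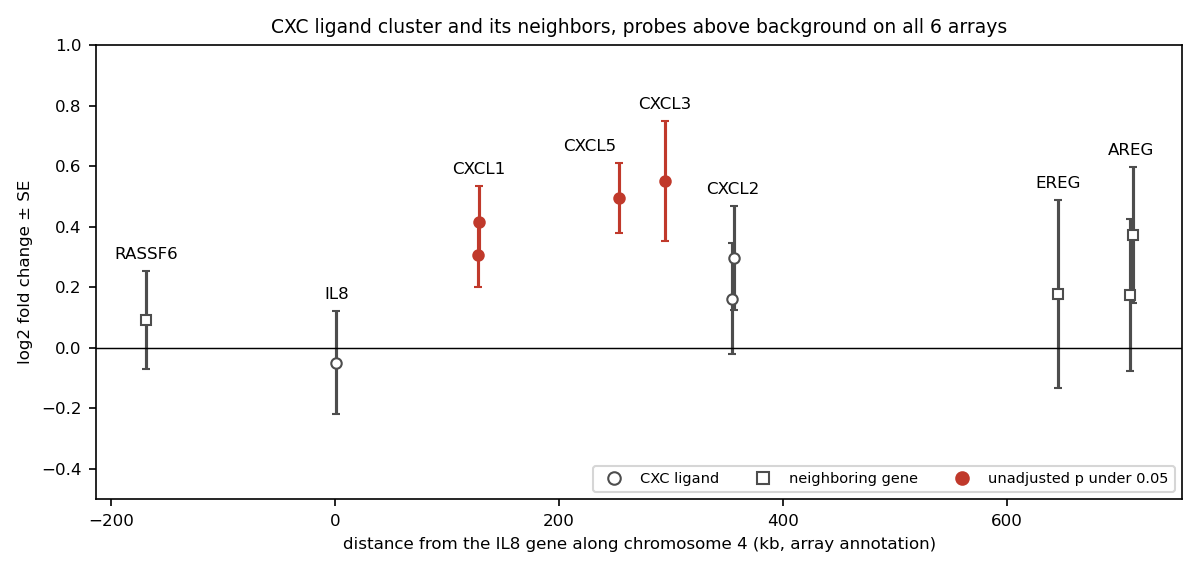
Log2 fold change ± SE from limma (vertical axis) against distance from the IL8 gene in kb along chromosome 4 (horizontal axis), for probes well above background on all 6 arrays. Circles are CXC ligands, squares are neighboring genes, and red marks an unadjusted p under 0.05. CXCL1, CXCL5 and CXCL3 lie between 0.31 and 0.55, IL8 is at -0.05, and RASSF6, EREG and AREG on either side did not pass.

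All 6 CXC ligands lie in 356.4 kb of chromosome 4 (74607982 to 74964401 on hg19), in the order IL8, CXCL6, CXCL1, CXCL5, CXCL3 and CXCL2. The 3 called higher, CXCL1, CXCL5 and CXCL3, are consecutive in that order. PPBP, a platelet chemokine gene between CXCL1 and CXCL5, was not well above background on any array. The named genes within 400 kb on either side that were well above background on all arrays did not pass, with log2 fold changes of 0.09 (SE 0.16) for RASSF6, 0.18 (SE 0.31) for EREG, and 0.17 (SE 0.25) and 0.37 (SE 0.22) for the AREG probes. EREG and AREG encode ligands of the epidermal growth factor receptor.

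IL1B, the secreted form of IL-1 that caspase-1 matures, was lower in the DFX-treated tumors on average without passing the test. Its probe (A_23_P79518, chr2:113587429-113587488 on hg19, minus strand) read 9.97, 10.60 and 10.55 in the controls against 9.73, 9.95 and 10.48 after DFX. The groups overlapped, with control replicate 1 among the DFX-treated tumors. The log2 fold change was -0.32 (SE 0.26, 95% interval -0.96 to 0.32; unadjusted limma p 0.263). It was below 0 under every alternative run, between -0.54 and -0.047, and passed under none.

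IL1A, the form that stays largely in or on the cell and acts as an alarm signal on its release, did not pass either. The probe (A_23_P72096, chr2:113532362-113532421 on hg19, minus strand) read 7.35, 8.12 and 8.41 in the controls against 7.69, 7.81 and 8.12 after DFX. The control tumors spanned the whole range of the DFX-treated ones. The log2 fold change was -0.09 (SE 0.29, 95% interval -0.80 to 0.62; unadjusted limma p 0.766). Both IL-1 probes were printed on 10 spots of each array. The SD over the spots of an array was 0.0366 to 0.107 for IL1A, beside an SD over tumors of 0.549 in the controls and 0.22 after DFX. For IL1B it was 0.0371 to 0.0779, beside 0.351 and 0.388.

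LIF, a cytokine of the IL-6 family, had the largest log2 fold change on the list and also a wide spread. The brighter probe (A_24_P122137, chr22:30636713-30636772 on hg19, minus strand) read 9.21, 9.84 and 9.997 in the controls against 10.21, 10.59 and 10.09 after DFX. The second probe (A_24_P233488, chr22:30639661-30639720) read 9.29, 9.70 and 8.86 against 10.41, 9.38 and 10.27. On the brighter probe the groups were apart by the gap between control replicate 3 and DFX replicate 3, while on the second probe DFX replicate 2 lay below control replicate 2. The log2 fold changes were 0.62 (SE 0.25, 95% interval 0.0081 to 1.23; unadjusted limma p 0.0478, adjusted 0.591) and 0.74 (SE 0.34, 95% interval -0.095 to 1.57; unadjusted limma p 0.0734). The tumors did not rank alike on the 2 probes, which lie 3588 and 640 bases into the annotated transcript: DFX replicate 2 was the highest tumor on the first and the lowest DFX-treated tumor on the second. In the fits that leave out 1 tumor, the brighter probe passed only without control replicate 3, and it was 0.38 without control replicate 1.

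IL6 was at the background of the array. Its probe A_23_P71037 (chr7:22771207-22771266 on hg19, plus strand) was well above background only in control replicate 3, at 4.31, and its other probe, A_33_P3407013, on no array. Neither passed the detection filter, and no fold is given.

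**Figure D3:**
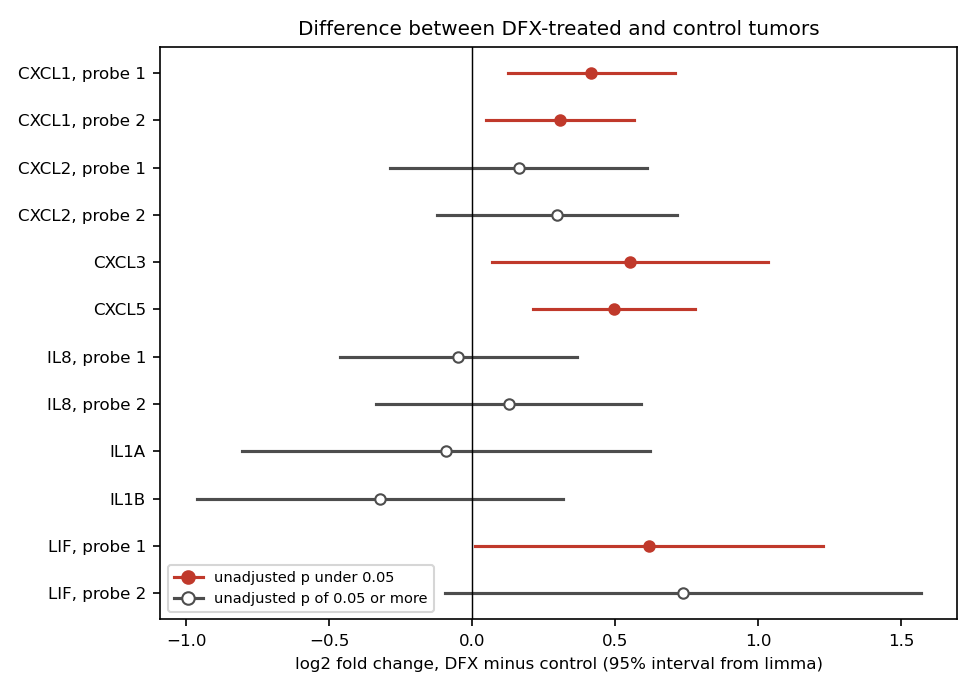
Log2 fold change, DFX-treated minus control tumors (horizontal axis), with its 95% interval from limma, for the 12 tested probes of 8 genes. Red marks an unadjusted p under 0.05. The intervals of both CXCL1 probes, CXCL3, CXCL5 and LIF probe 1 lie above 0, and the other 7 cross it.

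The genes were also set against each other within each array, which cancels whatever scales a whole array. All 28 pairs of the 8 tested genes were compared, and the pairs share genes, so they are not independent of one another. The log2 ratio of CXCL5 to IL1B differed by 0.82 between the groups without overlap, that of CXCL3 to IL1B by 0.87, that of CXCL2 to IL1B by 0.49 and that of CXCL5 to IL8 by 0.54, each higher after DFX. Ratios of IL8, IL1A and IL1B to LIF differed by -0.67, -0.71 and -0.94, and that of CXCL2 to CXCL5 by -0.33, also without overlap. The other pairs overlapped. With 3 tumors against 3, a two-sided exact permutation test cannot give a p under 0.1, which each of the named pairs had, so no pair could pass even before adjustment over the 28. These ratios are a description, and a difference in response between the genes is not shown by them.

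Control replicate 1 was the lowest of the control tumors for CXCL2, CXCL3, CXCL5, IL1A, IL1B and LIF on their brightest probes, and without it fewer genes passed, with calls for CXCL1 and CXCL5 only. Without DFX replicate 1, CXCL5 alone passed. With the other tumors left out in turn, 3 or 4 of the genes passed on any probe. Without control replicate 2 or DFX replicate 2, LIF passed on its second probe only.

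The mean of the 5 tested CXC ligands, each centred on its mean over the tumors, was -0.29, -0.07 and -0.12 in control replicates 1, 2 and 3 and 0.24, 0.05 and 0.18 in DFX replicates 1, 2 and 3. DFX replicate 2 was thus the nearest to the control tumors. The 5 genes whose brightest probe followed this pattern most closely over the 6 tumors, among 18551 candidates well above background on all arrays, were TELO2, PRIC285, RILPL2, HSP90AB2P and ZDHHC14, with Pearson correlations of 0.995, 0.995, 0.989, 0.982 and 0.982. TELO2, for example, read 12.07, 12.23 and 12.18 in the controls against 12.56, 12.37 and 12.49 after DFX. HSP90AB2P is a pseudogene, and its probe could share signal with the HSP90 gene it derives from. Of the candidates, 159 (0.857%) had a correlation above 0.9, and the correlations are given as a description of these 6 tumors. Within the CXC mean itself IL8 did not follow the other ligands. Its Pearson correlations with CXCL1, CXCL2, CXCL3 and CXCL5 were -0.21, -0.25, -0.43 and -0.19.

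None of the tested receptor probes passed in limma at an unadjusted p under 0.05. Of 9 receptors tested, 7 were lower and 2 higher, with a median log2 fold change of -0.26. gp130 (IL6ST) was at 0.03 (SE 0.11), IL1RAP at 0.16 (SE 0.13), LIFR at -0.26 (SE 0.13; unadjusted limma p 0.0972), IL1R1 at -0.28 (SE 0.16) and the decoy receptor IL1R2 at -0.33 (SE 0.30). IL6R gave -0.29 (SE 0.30) on its tested probe. A second IL6R probe, which the detection filter removed, was not tested. It was well above background on all 3 control arrays, at 4.38, 5.02 and 4.46, and on 0 DFX arrays. The lowest intensities well above background on the DFX arrays were 4.18, 4.69 and 4.12. With the DFX tumors set to these limits, the control mean was 1.23-fold higher, a bound on the means without an error. The limit of DFX replicate 2 lay above control replicates 1 and 3. The number of receptors called was 2 without the filter on dim probes, 1 with detection in at least 1 group, without moderation or with slide column as a block, and 4 with epithelial centring. The neutrophil receptors CXCR1 and CXCR2 were well above background on 0 and 1 of the 6 arrays.

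Other members of the IL-1 and IL-6 families were mixed, with 2 of 10 tested genes called higher and 1 lower and a median of -0.099. IL33, a nuclear cytokine of the IL-1 family that barrier cells hold in store, was higher without overlap, at 11.63, 11.41 and 11.23 in the controls against 12.28, 11.85 and 12.33 after DFX (log2 fold change 0.73, SE 0.18; unadjusted limma p 0.00691, adjusted 0.514). IL11, which also signals through gp130, was lower without overlap, at 7.77, 8.14 and 7.81 against 7.44, 7.29 and 7.48 (log2 fold change -0.50, SE 0.14; unadjusted limma p 0.0114, adjusted 0.514). LIF and IL11, of the same family, thus lay on opposite sides, and the difference between them was not tested. The second gene called higher was IL36B, whose probe never stood well above background, so that no fold is given. IL1RN, the receptor antagonist that competes with IL1A and IL1B, was at 0.05 (SE 0.17).

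Among the other chemokines, 0 of 13 tested genes were called higher and 1 lower, with a median of 0.16. The one called was CCL4, an attractant of monocytes and lymphocytes, at 5.22, 4.72 and 5.49 in the controls against 3.96, 4.26 and 4.84 after DFX (log2 fold change -0.79, SE 0.29; unadjusted limma p 0.0355). The groups overlapped, and only 1 DFX array measured it well above background. CCL20 and CXCL16, which epithelial cells make, gave 0.16 (SE 0.13) and 0.18 (SE 0.15), and neither passed. The colony-stimulating factors had 0 calls among 2 tested genes.

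The NF-κB-driven genes had 1 call among 16, and its direction was up. It was TNFAIP2, a gene induced by tumor necrosis factor, whose log2 fold change was 0.28 (SE 0.11; unadjusted limma p 0.0412), and the median of the list was 0.11. The feedback inhibitors of NF-κB gave -0.07 (SE 0.19) for NFKBIA and 0.30 (SE 0.32) for TNFAIP3. NFKBIZ, a cofactor in the induction of secondary response genes, gave 0.19 (SE 0.24). Of 14 genes of IL-1 processing and signaling, 0 were called higher and 1 lower, with a median of -0.015. That gene was CASP4, an inflammatory caspase, at -0.28 (SE 0.10; unadjusted limma p 0.0371).

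Downstream of gp130, 9 genes of STAT3 signaling and feedback were tested, with 1 called higher, 2 lower and a median of 0.05. STAT3 itself was lower on its brightest probe, at -0.29 (SE 0.11; unadjusted limma p 0.0401), and at -0.11 (SE 0.17) on its second probe. JUNB, an AP-1 subunit induced early by cytokines, was at 9.10, 9.56 and 9.14 in the controls against 8.67, 8.99 and 8.51 after DFX, without overlap (log2 fold change -0.54, SE 0.19; unadjusted limma p 0.0293). SOCS3, the feedback inhibitor of gp130, was at 0.05 (SE 0.26). PTPN11, a phosphatase bound to gp130, was called higher on 1 of 3 tested probes (0.49, SE 0.12), while its brightest probe gave -0.13 (SE 0.12).

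Cytokine and chemokine mRNAs are short-lived because proteins such as ZFP36 bind AU-rich elements in them. Of 8 decay and stability factors tested, 1 was called higher and 0 lower, with a median of 0.093. KHSRP was called on its dimmer probe (0.55, SE 0.12), and its brightest probe gave 0.18 (SE 0.10). ZFP36 was at -0.20 (SE 0.14; unadjusted limma p 0.192).

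Human probes for markers of host cell types were read because leukocytes and fibroblasts could also be a source of these mRNAs. Their signal could come from mouse RNA or from the BxPC-3 cells themselves, and its origin was not tested. The leukocyte list had 0 calls among 8 tested of 10 listed genes, with a median log2 fold change of 0.18. Its summed intensity on a linear scale was 3240 to 3510 in the control tumors and 3550 to 4080 in the DFX-treated tumors. These sums did not overlap, but on the brightest probe of each of the 8 genes the groups did. The epithelial sums, 619000 to 624000 against 631000 to 643000, did not overlap either. KRT19, the brightest epithelial marker, weighs most in these sums, so its limit under quantile normalization holds for them too. Of the defining markers of the leukocyte list, CSF1R was well above background on no array. The fibroblast list had 1 gene called higher (LUM, 0.87) and 1 lower (DCN, -1.30) among 7 tested of 8, with summed intensities of 13800 to 22700 against 12700 to 15700. Its median was -0.091. In the endothelial list 1 of 4 tested of 5 listed genes was higher, PECAM1, which was called at 1.27, and the other 3 were lower without passing. The endothelial median was -0.19, with summed intensities of 482 to 947 against 556 to 599, and KDR was not well above background on any array. For the 8 tested genes of the chemokine and cytokine list the sums were 4490 to 5660 and 6070 to 6750, also without overlap. They include the called probes of CXCL1, CXCL3, CXCL5 and LIF, so this separation is not a result apart from those calls. The part of host cells in the values of the chemokines and cytokines was not tested.

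**Figure D4:**
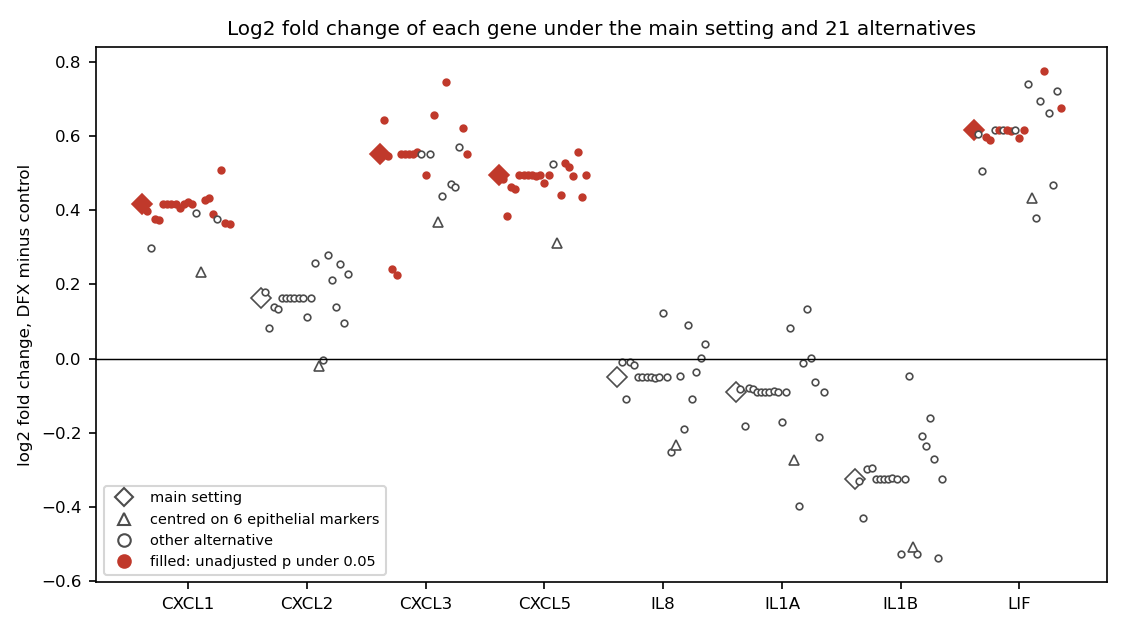
Log2 fold change of the brightest probe of each of the 8 tested genes (vertical axis) under the main setting (diamond), with centring on 6 epithelial markers (triangle) and under the other alternatives (circles), 21 alternatives in all. Filled symbols had an unadjusted p under 0.05. CXCL1, CXCL3, CXCL5 and LIF stayed above 0 and IL1B below 0 throughout, while CXCL2, IL8 and IL1A crossed 0.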

How the data were processed

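The authors deposited Agilent Feature Extraction output for each array, with spot intensities on a linear scale, a p-value of each spot against its background, and flags for background, saturation and outliers. The file headers name version 10.7.1.1 and the labels 9.5.1.1. They also deposited a table of quantile-normalized intensities, which differed from the values used here by a median of 0.64% and served as an alternative. Here the background-subtracted signal of 58717 non-control spots was log2-transformed and quantile-normalized, 1398 outlier spot values were left out, and spots were averaged per probe (50599 probes). The 31807 probes whose background p-value was under 0.05 on each of the 6 arrays entered a linear model (limma 3.58.1, run in R 4.3.3; lmFit, then eBayes, total degrees of freedom 6.04). P-values were adjusted by Benjamini-Hochberg over all 31807. The brightest tested probe stands for a gene in medians, and a gene was counted as called if any probe had an unadjusted p under 0.05. A probe was called well above background on an array if most of its spots were. Where both groups, or the dim group's bound, left no fold above 1, none is given.

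Groups came from the sample labels, and 0 columns stayed unmatched. The 10 genes, the lists and the tests were chosen with earlier results of these data known. All 10 genes are named, together with the called genes of each list, the direct receptors, IL1RN, CCL20, CXCL16, NFKBIA, NFKBIZ, TNFAIP3, SOCS3 and ZFP36, and the 5 genes most like the CXC mean. Probe positions are from the array annotation on hg19, and promoter sequences from RefSeq on GRCh38.p14. Alignments used Biopython 1.88, and exact permutation tests SciPy 1.17.1. In simulated data for this comparison, with 200 of 31807 probes changed, limma found 89% of the changes of 1 and 98% of those of 2 on the log2 scale at an unadjusted p under 0.05, and called 5.42% of the unchanged probes. Smaller changes were not simulated. The simulated noise was normal and independent between probes, with the residual SDs of the data shuffled over the probes. These rates check the fit and are not the power on these arrays. Alternatives covered scaling, background correction, filters, outlier flags, moderation, array weights, blocks, the rule for probes, and each tumor left out. Centring on the 6 epithelial markers was chosen after the data had been seen.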

Additional observations from a re-analysis of the deposited data

How the results depend on the processing

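Of the 21 alternatives run on the brightest probes, CXCL5 passed an unadjusted limma p under 0.05 in 19, CXCL1 in 17, CXCL3 in 14 and LIF in 9, always higher in the DFX-treated tumors, with log2 fold changes of 0.31 to 0.56, 0.23 to 0.51, 0.23 to 0.75 and 0.38 to 0.77. IL1B stayed below 0. The number of genes called, 4 under the main setting, was 2 after median scaling (CXCL3 and CXCL5), which put the median of all probes at -0.10, 2 without moderation of the variance (CXCL1 and CXCL5), 1 with slide column as a block (CXCL3), 0 with centring on 6 epithelial markers, and 1 to 4 with each tumor left out. The median over the 8 genes, 0.29, was 0.11 with that centring, 0.19 with median scaling or normexp, 0.18 with the raw mean signal, and 0.19 (without control replicate 1) to 0.36 (without DFX replicate 2) with each tumor left out. The number of tested probes at an unadjusted p under 0.05, 2674 under the main setting, was 4213 with array quality weights, 1418 with slide column as a block, 6009 with epithelial centring, and 1889 to 2716 with each tumor left out. At an adjusted p under 0.05 it was 0 under the main setting and 1 to 3 in 7 of the alternatives, none of them a probe of these genes. Slide columns 2 and 4 were the only ones with arrays of both groups, so the column block compares the groups within those columns only. With that block the brighter CXCL1 probe gave 0.39, with an SE of 0.24 against 0.12 under the main setting. The cause of the shifts between the alternatives was not tested.

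Genes that did not pass changed sign in places. The brighter CXCL2 probe was at -0.021 with epithelial centring and between -0.0047 and 0.28 with each tumor left out. IL1A was at 0.081 with slide column as a block and between -0.40 and 0.13 with each tumor left out. The brighter IL8 probe was at 0.12 with array weights, at 0.0395 over the mean of both probes, and between -0.19 and 0.092 with each tumor left out. The second IL8 probe was at -0.056 with epithelial centring and between -0.038 and 0.24 with each tumor left out.

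Replicate numbers are shared between the groups, but nothing in the labels pairs the tumors, and same-numbered tumors deviated together at correlations of only 0.027, 0.027 and 0.016. With the replicate block, 3 of the genes passed (CXCL1, CXCL5 and LIF), 2415 probes were called, and the median over the 8 genes stayed at 0.29. Signal limits what can be said of CXCL6 and IL6, which were near background, and 3 tumors per group limit all other values.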
